A study of Mus musculus with 8 samples.

Results

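Among the 90752 non-control probes of the array, each of 60 bases, 739 stretches of 25 bases recur on the same strand in 10 to 80 different probes. Of these stretches, 488 link 887 probes into 29 families of 10 to 163 members, and these 887 probes are described here. The members were found from the probe sequences alone, with no use of signal. Families were numbered by size, family 1 being the largest. Another 2 families were left out, with 532 probes, the other 251 stretches and 8 stretches found in 81 to 99 probes each.

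RNA of jejunum came from 21-week-old male mice of the inbred strain C57BL/6. All had eaten a high-fat diet from 6 weeks of age, and after 12 weeks 32 of 60 were diabetic. Of these, 18 were randomised to DJB, a form of bariatric surgery, and 14 to sham surgery. RNA taken 2 weeks after surgery was hybridised to 4 one-colour arrays for DJB and 4 for Sham, and the series text calls the segment the Roux limb. The comparison asks which jejunal transcripts stand at other levels after DJB than after sham surgery. The tissue label gives jejunum while the extraction protocol names the duodenum, and no probe is paired with a gene here, so marker genes of the tissue were not checked. Whether each array stands for its own mouse is not labelled, and the p-values reflect only how far these samples spread, which may be technical.

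Mammalian genomes hold many near-copies of short sequences. Interspersed repeats, which spread by copying themselves into new sites, lie in introns, in untranslated ends and in long noncoding RNAs, and processed pseudogenes and tandem gene families add copies of coding sequence. A probe inside such a sequence takes up every transcript that carries a close enough copy, so its signal is a sum over copies rather than the level of 1 transcript. No repeat annotation or gene map was used, and the families are therefore called by their shared stretch.

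All signals below are levels, the log2 processed signal minus the array's own 75th percentile over non-control spots, so that a level of 0 is the upper quartile of the array. The lowest level well above background was -4.68 to -4.38 on the DJB arrays and -5.32 to -4.90 on the Sham arrays, and no spot was saturated (0 on every array). Between 60.9% and 67.38% of probes were well above background per array, with the 75th percentile at an intensity of 496.1 to 549 in DJB and 567.7 to 615.1 in Sham. The 4 DJB arrays lay on 1 slide and the 4 Sham arrays on another, so slide and surgery cannot be told apart in any comparison here.

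The sequences below carry the results and are written 5′ to 3′ with the family's most frequent 25-base stretch in capitals. The first set is the 3 families with the steepest rise in DJB. Each is shown by the probe nearest the middle of its family's fold changes among those holding the stretch.
family 17: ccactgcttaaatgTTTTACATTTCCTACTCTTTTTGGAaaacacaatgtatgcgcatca
family 6: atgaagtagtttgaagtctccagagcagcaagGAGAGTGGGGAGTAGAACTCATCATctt
family 15: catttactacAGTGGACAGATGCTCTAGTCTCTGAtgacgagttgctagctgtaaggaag
Families 25 and 26 had smaller rises at a higher level.
family 25: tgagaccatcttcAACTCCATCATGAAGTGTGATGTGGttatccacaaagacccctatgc
family 26: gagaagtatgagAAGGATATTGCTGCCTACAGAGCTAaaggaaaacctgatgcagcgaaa
Families 4, 20, 21 and 22 had the lowest median fold changes.
family 4: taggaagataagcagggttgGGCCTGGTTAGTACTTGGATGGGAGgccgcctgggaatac
family 20: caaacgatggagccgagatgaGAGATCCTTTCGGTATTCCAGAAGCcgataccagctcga
family 21: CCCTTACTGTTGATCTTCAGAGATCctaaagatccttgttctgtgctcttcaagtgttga
family 22: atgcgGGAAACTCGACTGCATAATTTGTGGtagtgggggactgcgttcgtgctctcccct
Families 1, 2, 3 and 5, with family 4, had the most tested members, and families 1 and 18 were the brightest.
family 1: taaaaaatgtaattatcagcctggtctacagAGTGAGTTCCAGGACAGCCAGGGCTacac
family 2: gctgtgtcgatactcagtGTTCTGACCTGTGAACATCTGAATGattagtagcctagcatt
family 3: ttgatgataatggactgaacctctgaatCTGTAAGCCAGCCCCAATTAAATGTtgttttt
family 5: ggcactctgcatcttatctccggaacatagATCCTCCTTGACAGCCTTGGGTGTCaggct
family 18: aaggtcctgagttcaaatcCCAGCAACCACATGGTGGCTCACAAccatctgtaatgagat
Families 27 and 28 hold the opposite strand of families 1 and 18.
family 27: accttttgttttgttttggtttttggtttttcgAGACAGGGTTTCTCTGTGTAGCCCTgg
family 28: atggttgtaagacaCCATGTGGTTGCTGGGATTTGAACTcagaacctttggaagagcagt

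Of the 887 members, 761 were bright enough to be tested, with all spots well above background on 4 or more of the arrays, and 126 were not. Across all 58712 tested probes of the array, 31.3% were called at a limma adjusted p (Benjamini-Hochberg) under 0.05, 18.4% higher and 12.9% lower in DJB. Among the members 154 (20.2%) were called, 119 (15.6%) higher and 35 (4.6%) lower, and 607 were not. The members' share lay below that of the array in both directions. Of the 119 higher members, 24 and 13 belong to families 6 and 15, many of whose probes passed the filter through DJB. With arrays centred on their median, 78 members were higher and 142 lower, beside 12.0% and 21.8% of all probes. This centring moved the median log2 fold change of all tested probes from 0.04 to -0.07. With quantile normalization 92 members were higher and 50 lower, beside 15% and 16.3% of all tested probes. The calls were unevenly spread, since 8 families had none, families 2 and 21 had calls in both directions, and in 5 families 50% or more of the tested members were higher. By limma, 0 of 27 families had 50% or more of their tested members lower, although median centring gave 5 such families. Of the 761 tested members, the groups did not overlap for 198 higher and 64 lower in DJB. The share lower lay below the 14.2% of all tested probes. The share higher lay above their 20%, but the 198 include the 24 and 13 tested members of families 6 and 15. Many of those passed the filter through DJB. Another 51 of the 198 belong to family 1, whose median log2 fold change was -0.01 with quantile normalization. The share higher is therefore not read as a trait of the members.

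Family 17 was brighter in DJB, and this held for every one of its 18 probes. Its median level was -0.63, -0.96, -2.25 and -1.78 on DJB replicates 1 to 4 and -3.40, -3.30, -3.49 and -3.86 on Sham replicates 1 to 4. The groups did not overlap, and the DJB arrays spread more widely than the Sham arrays (-1.41 ± 0.74 against -3.51 ± 0.24, SD, n = 4 each). The log2 fold changes of the 18 probes ran from 1.89 to 2.23, with a median of 2.10 (4.30-fold), and their limma adjusted p ran from 0.00164 to 0.00551. All 18 were detected, that is well above background, on the 4 DJB arrays, and 16 on all 8. The probe shown above had levels of -0.58, -0.82, -2.03 and -1.77 in DJB and -3.35, -3.23, -3.26 and -3.77 in Sham. Its log2 fold change was 2.11 with an SE of 0.32 (limma adjusted p = 0.00286). The brightest and dimmest probes with the stretch, at mean levels of -1.65 and -3.46, gave log2 fold changes of 2.16 and 2.03. Family 17 is rich in A and T, with a median GC content of 35%.

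Families 6 and 15 rose by a similar amount but were dimmer, with median levels of -3.85 and -3.77, close to the detection limit. Family 6 has 41 members, of which 23 were detected on all DJB arrays and 5 on all Sham arrays, and 24 were tested. Many of these passed the filter through DJB, so a rise among those that passed was built into the filter and is not counted as support. Without the filter all 41 were fitted, and 39 were higher in DJB (24.8% of all 90732 probes fitted this way were higher), with a median log2 change of 2.09 and a lowest value of 0.45. Of the 41, 25 were detected on 0 Sham arrays, so for these the Sham value is background. This fit also called 11 of the 21 members of family 11 higher, none of them above background on any array. It is therefore not counted as support either. The 5 members detected on all 8 arrays had a median of 2.07, and all 5 were higher (19% of the 52774 such probes). Per array, the 24 tested members had median levels of -1.99, -2.28, -3.62 and -3.17 in DJB and -4.95, -4.82, -4.74 and -5.03 in Sham. These groups did not overlap (-2.76 ± 0.76 against -4.88 ± 0.13, SD, n = 4 each), but the Sham medians lie at background. For 8 tested members detected on every DJB array and on 0 Sham arrays only a bound can be given, with each Sham array set to its lowest signal well above background, or to the probe's own signal where that was higher. They were at least 3.37-fold to at least 4.51-fold higher in DJB. With these probes at their bound the median over the tested members was 2.09, against 2.15 from the fit.

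Family 15 has 18 members, 13 of them tested, and 2 were detected on all 8 arrays. Its tested members had median levels of -1.99, -2.26, -3.67 and -3.17 in DJB and -4.82, -4.86, -4.82 and -4.97 in Sham, again with no overlap and with Sham at background. The 2 members detected throughout had a median log2 fold change of 1.98. Without the filter all 18 were higher, with a median of 2.17, but 7 of the 18 were detected on 0 Sham arrays. The tested members of families 6 and 15, many of which passed the filter through DJB, had limma adjusted p of 0.000741 to 0.00858 and 0.00162 to 0.0055. Without the filter the highest limma adjusted p was 0.638 in family 6 and 0.0142 in family 15. Another 2 members of family 15 were at least 3.43-fold and at least 3.92-fold higher, and with these at their bound the family's median was 2.07.

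In families 17, 6 and 15 DJB replicate 1 was the brightest, then replicates 2, 4 and 3, an order also seen in families 1, 16, 27 and 28. No 15-base stretch is common to any 2 of these 3 families, on the same strand or on opposite strands (0 in each of the 3 pairs). Leaving out any array moved the median of family 17 between 1.87 and 2.40, that of family 6 between 1.84 and 2.37 and that of family 15 between 1.85 and 2.41, the highest value coming each time without DJB replicate 3. Normexp background correction gave smaller medians of 1.35, 0.95 and 0.97, those of families 6 and 15 over probes that passed the filter, and all 18 members of family 17 were still higher.

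Family 25 rose with little spread among its probes. It is named after its values were seen, since the rule for named families did not take it. Its median level was 4.10, 4.29, 4.72 and 4.12 on DJB replicates 1 to 4 and 3.65, 3.73, 3.72 and 3.82 on Sham replicates 1 to 4. The groups did not overlap (4.31 ± 0.29 against 3.73 ± 0.07, SD, n = 4 each), and DJB replicate 3 was the highest. All 10 members were called higher, with log2 fold changes of 0.52 to 0.62 (median 0.57, 1.49-fold) and limma adjusted p of 0.0109 to 0.0258. The probe shown changed by 0.57 with an SE of 0.14 (limma adjusted p = 0.0191), and 5 of 10 members were still called without Sham replicate 1 and 7 with median centring.

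Family 26 had a larger fold change but a wider spread in Sham. Its median level was 4.74, 4.87, 4.96 and 4.71 in DJB and 3.58, 3.98, 4.58 and 4.45 in Sham. The DJB arrays lay together, and Sham replicates 3 and 4 came close to them without overlap. The log2 fold changes of its 10 members ran from 0.66 to 0.75 (median 0.69, 1.62-fold), and 9 were called, with limma adjusted p of 0.0286 to 0.0502. These calls lie at the threshold, and leaving out 1 array could end them. Without DJB replicate 2, DJB replicate 3 or Sham replicate 2, and with arrays centred on the median, 0 of 10 were called, although all 10 had an unadjusted p under 0.05 in each of these. From 1 to 2 were called without DJB replicate 1, DJB replicate 4 or Sham replicate 1 and with quantile normalization, 1 of 9 in the deposited table, and 10 without Sham replicate 3 or 4. The median kept its sign in each case, between 0.50 and 0.84. Deviations of the members from their group means were nearly parallel, with a mean pairwise correlation of 0.992 in family 26 and 0.978 in family 25 over the 8 arrays, which all members share.

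Smaller rises were mixed. Family 12 (21 members, median GC content 58.3%) had median levels of -0.72, -0.85, -0.95 and -0.46 in DJB and -0.95, -1.06, -1.46 and -1.07 in Sham, which come together at -0.95. It had 9 members higher and a median log2 change of 0.45, and after the trend of fold change with GC content was removed 1 was higher and the median was 0.21. Without DJB replicate 4 it had 4 members higher, and without Sham replicate 2, 3 or 4 it had 5. Family 13 had 7 of 17 tested members higher and a median of 0.36, but its members ran from -0.49 to 0.80 and the median was 0.15 in the deposited table. Family 7 had 10 of 41 higher with a median of 0.17, but 1 without DJB replicate 2 or Sham replicate 4, 2 without DJB replicate 1, Sham replicate 2 or Sham replicate 3, 2 with quantile normalization, 1 of 32 in the deposited table, 1 with median centring and 0 once the GC trend was removed (1 at an unadjusted p under 0.05). The stretches of these families, all capitals, were as follows.
family 7: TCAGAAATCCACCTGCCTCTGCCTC
family 12: AGGTGGCAGTGGGCGTGCAGGAGAA
family 13: GAAAAGCTGAACAAAATGAGTGAAA

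Family 4, with 45 members all detected on all 8 arrays, had the lowest median fold change. Its median level was 4.10, 3.65, 3.83 and 3.71 on DJB replicates 1 to 4 and 4.59, 4.41, 3.79 and 4.19 on Sham replicates 1 to 4. The groups overlapped, because Sham replicate 3 lay among the DJB arrays. The log2 fold changes of all 45 members were below 0, from -0.60 to -0.34 (median -0.43), yet only 3 were called lower by limma after adjustment, with adjusted p from 0.0445 to 0.237 over the family. This count changed whichever array was left out. It was 43 without Sham replicate 3, 15 without DJB replicate 1 and 0 without any other single array. Among the fits that gave 0 by limma, from 4 to 12 members still had an unadjusted p under 0.05. The count of lower members was 37 with the GC trend removed, 28 with median centring, 14 with normexp background correction and 7 with quantile normalization. Levels of single members ranged from 0.93 to 5.27, so the similar fold changes span a wide range of brightness.

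Family 20 had 5 of 16 members lower and a median log2 fold change of -0.32, from -0.42 to -0.26. Its median level was 1.40, 1.30, 0.89 and 1.35 in DJB and 1.59, 1.56, 1.42 and 1.66 in Sham. DJB replicate 3 was the lowest, and DJB replicate 1 came close to Sham replicate 3 without overlap. Median centring called all 16 lower, removal of the GC trend 15 and normexp background correction 11. There was 1 call without Sham replicate 1, 2 or 4, and 2 without DJB replicate 2 or with quantile normalization. Family 22, with levels from 1.40 to 7.07 among its members, had a median log2 fold change of -0.21 and 1 of 14 lower, or 10 of 14 with median centring or the GC trend removed. There were 7 lower without DJB replicate 1 and with normexp background correction, and 0 by limma without DJB replicate 2, DJB replicate 3, Sham replicate 1, Sham replicate 3 or Sham replicate 4, where 1 to 4 had an unadjusted p under 0.05.

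A family's median log2 fold change was shared closely by its members. The SD of log2 fold change within a family had a median of 0.07 over the 27 families tested and was under 0.1 in 19 of them, where that over all tested probes was 0.46 and the median SE of 1 probe was 0.11. Differences between families held 94.8% of the variance of log2 fold change among tested members, a share that rested in part on the high families. It was 89.4% with families 6 and 15 left out and 71.3% with family 17 left out too, both chosen after the data were seen. Of the variance of level 92.7% lay between families. Levels within a family still spread, with a median SD of 1.02, beside 3.0 over all tested probes. Family 16 was the widest in level, with an SD of 2.67. Probes of 1 family share sequence and may share targets, which was not tested, so they are no replicates of surgery.

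Pooled over families, pairs of probes from the same family were closer the longer their identical run. In 14092 pairs with a run under 25 bases the median absolute difference in level was 0.66 and in log2 fold change 0.08. At 25 to 34 bases (7312 pairs) these were 0.56 and 0.07, at 35 to 44 bases (1527 pairs) 0.28 and 0.06, and at 45 or more bases (463 pairs) 0.16 and 0.05. The difference in level fell over these classes by more than the difference in fold change. Pairs share probes and families, so no test was made. Families 1 and 2, the largest, had median runs of 19 and 20 bases, so the classes also differ in their families. Whether the trend holds within single families was not tested.

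Some near-identical probes nonetheless read very differently, and 3 families with the widest spread of fold change, 21, 13 and 2, show it. Among 65 pairs of probes that align over all 60 bases and differ at 1 base, the median absolute difference in level was 0.27 and the largest 1.68. The base lay in the middle 30 positions in 29 pairs, with a median difference of 0.32, and in the outer 15 positions of either end in 36 pairs, with a median of 0.17 and a largest value of 0.61. The pairs below are those with the largest difference of their class, picked after the values were seen, with the differing bases in capitals. Substitutions give the base of the brighter probe, the position from 1 at the 5′ end, and the base of the dimmer probe.
family 13 brighter, 1 base: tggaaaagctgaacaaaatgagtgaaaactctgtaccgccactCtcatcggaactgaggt
family 13 dimmer, 1 base: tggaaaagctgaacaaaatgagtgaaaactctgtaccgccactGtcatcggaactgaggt
family 13 brighter, 2 bases: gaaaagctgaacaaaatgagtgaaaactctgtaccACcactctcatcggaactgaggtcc
family 13 dimmer, 2 bases: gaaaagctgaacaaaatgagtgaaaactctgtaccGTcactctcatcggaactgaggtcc
family 21 brighter, 1 base: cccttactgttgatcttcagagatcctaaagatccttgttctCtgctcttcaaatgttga
family 21 dimmer, 1 base: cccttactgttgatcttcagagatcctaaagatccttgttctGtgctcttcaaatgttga
family 2 brighter, 5 bases: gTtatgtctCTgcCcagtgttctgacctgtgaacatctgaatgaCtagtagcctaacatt
family 2 dimmer, 5 bases: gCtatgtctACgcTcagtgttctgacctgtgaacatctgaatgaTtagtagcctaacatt

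In family 13, the change C44G went with a drop in mean level from -1.93 to -3.61. The brighter probe had levels of -1.67, -1.99, -1.95 and -1.69 in DJB and -1.83, -2.20, -2.12 and -1.99 in Sham, and the dimmer one lay below it on every array. Neither was called, with log2 fold changes of 0.21 (SE 0.11, limma adjusted p = 0.184) and 0.54 (SE 0.19, limma adjusted p = 0.0596). The pair that differs by A36G and C37T was further apart, at mean levels of -0.69 and -4.04. The brighter of these was -0.22, -0.29, -0.33 and -0.32 in DJB and -0.92, -1.02, -1.22 and -1.19 in Sham. Its log2 fold change was 0.80 with an SE of 0.08 (limma adjusted p = 0.00104). Its DJB arrays lay close together, with an SD of 0.05 (n = 4), and above all Sham arrays. The dimmer was -2.79, -4.41, -5.20 and -4.75 in DJB and -3.59, -3.93, -3.92 and -3.75 in Sham, and changed by -0.49 with an SE of 0.45 (limma adjusted p = 0.425). Its DJB arrays reach down to background, and the difference between both fold changes was not tested.

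In family 21 the pair that differs by C43G had similar levels, -2.78 and -3.17, but fold changes of opposite sign. The brighter probe was called higher, with 0.33 on the log2 scale (SE 0.10, limma adjusted p = 0.0379). The dimmer had -0.45 (SE 0.20, limma adjusted p = 0.116) and was not called. Sham replicate 2 set the dimmer probe's Sham mean, at -2.43 beside -3.09, -3.06 and -3.18, and its DJB arrays were -3.01, -3.73, -3.45 and -3.37. Over the family the median level was -3.04, -3.57, -3.68 and -3.38 in DJB and -3.34, -2.50, -3.32 and -3.38 in Sham, so the groups overlapped and the median log2 fold change of -0.24 leaned on that array. Leaving out Sham replicate 2 moved it to -0.01, and normexp background correction to -0.04. All 12 tested members were detected on all Sham arrays and 8 on all DJB arrays. Over these 8 the median was -0.11, with 1 higher and 0 lower by limma after adjustment and 3 at an unadjusted p under 0.05 in either direction. By limma 0 tested members were higher without any 1 array other than Sham replicate 2, where 2 to 6 had an unadjusted p under 0.05 in either direction.

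Family 2, the second largest, is dim, with a median level of -2.84 and 43 of 118 members not tested. Its median was -2.84, -2.96, -2.82 and -2.93 in DJB and -2.66, -2.79, -2.89 and -2.75 in Sham, with overlap. One member stood far above the others, at 6.91, 6.68, 6.46 and 6.54 in DJB and 6.57, 6.53, 6.28 and 6.29 in Sham, where the next brightest had a mean level of -0.27. It differs from a member at -0.67 by T2C, C10A, T11C, C14T and C45T and holds the same 25-base stretch, yet it was 7.20 higher in level. Its log2 fold change was 0.23 (SE 0.12, limma adjusted p = 0.167). Over the family 19 of 75 tested members were lower and 4 higher, with a median log2 fold change of -0.14 that was 0.02 with normexp background correction, where 1 was lower and 8 higher. Some of these members passed the filter through Sham, since 74 were detected on all Sham arrays and 62 on all DJB arrays. Of the 62 members detected on all 8 arrays, 18 were lower and 4 higher. Without the filter all 118 were fitted, 14 were lower and 17 higher, and the median was -0.04. The count of lower members was 2 without Sham replicate 4, 3 without Sham replicate 1, 5 without DJB replicate 2, 8 without DJB replicate 4, 10 without Sham replicate 2 and 11 without Sham replicate 3, and it was 32 with median centring and 29 with quantile normalization.

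Families whose stretch recurs near gene starts included the brightest. Each family's most frequent stretch was searched, on both strands, in 32851 windows of 27025 mouse genes, from 250 bases before to 50 after the start, in the RefSeq promoter table of assembly GRCm38.p6. The stretches of 13 families were found in the windows of at least 3 genes, a limit set after the data were seen. These were families 1, 3, 18, 27 and 28, shown above, and the 8 families below, all capitals.
family 9: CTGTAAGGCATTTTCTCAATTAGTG
family 10: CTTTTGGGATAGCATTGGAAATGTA
family 14: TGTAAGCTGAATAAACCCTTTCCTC
family 16: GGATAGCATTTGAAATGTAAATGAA
family 19: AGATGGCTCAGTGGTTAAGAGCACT
family 23: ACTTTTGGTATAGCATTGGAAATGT
family 24: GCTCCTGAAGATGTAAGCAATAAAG
family 29: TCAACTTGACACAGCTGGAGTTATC
The stretch of family 18 was the most widespread, in the windows of 22 genes on the gene's strand and of 21 on the other, or 0.134% of windows, followed by that of family 9 (16 and 7) and of family 28 (12 and 9). Those of families 12 and 22 were found at 1 gene each, Gm40237 and Gm26232. The most frequent stretches of 14 families were in 0 windows, and 12 families had no repeated stretch in any window. Other stretches of family 7 were found at 1 gene on the gene's strand and at 7 on the other. The rule, which used the most frequent stretch only, left family 7 outside the 13. A match is a match of letters only.

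All 402 members of the 13 widespread families were tested, and 14 were higher and 6 lower in DJB, or 1 and 53 with median centring. Their family median levels ran from 2.00 to 9.14, with a middle value of 5.88, beside -0.98 over all tested probes. Their median log2 fold changes lay between -0.12 and 0.22. The other 16 families had 485 members, of which 359 were tested, 105 higher and 29 lower (77 and 89 with median centring). Over all tested probes 18.4% were higher and 12.9% lower, or 12.0% and 21.8% with median centring. Of the 105, 24 and 13 belong to families 6 and 15. Only 5 and 2 of these were detected on all Sham arrays. Many passed the filter through DJB, and they are not counted as support. Another 18 belong to family 17. The medians of the 16 families ran from -0.43 to 2.16 in log2 fold change and from -3.85 to 6.19 in level. The 5 families with 50% or more of their tested members higher were all among these 16, families 6 and 15 included.

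Family 1 and family 18 had the highest levels. Family 1 was at 8.97, 8.89, 8.80 and 8.88 in DJB and 8.83, 8.80, 8.72 and 8.76 in Sham, so the groups overlapped. It was brighter than 99.5% of all tested probes, with 9 of its 163 members called higher and a median log2 fold change of 0.10 that was -0.01 with quantile normalization and in the deposited table, where 0 were called by limma (4 at an unadjusted p under 0.05 in each). By limma 0 were higher without DJB replicate 1, DJB replicate 2, Sham replicate 1, Sham replicate 3 or Sham replicate 4 (12 to 24 at an unadjusted p under 0.05 in either direction), 1 without Sham replicate 2, 2 without DJB replicate 4 and 18 without DJB replicate 3, and 1 was lower without DJB replicate 1 and 5 were lower with median centring. Family 18 was at 9.31, 9.24, 9.22 and 9.24 in DJB and 9.08, 9.12, 9.01 and 9.05 in Sham, without overlap, but the median log2 fold change was 0.15 with 1 of 17 members called higher, 3 without DJB replicate 3 and 5 with normexp background correction. By limma 0 were called without DJB replicate 2, Sham replicate 1, Sham replicate 3 or Sham replicate 4 (4 to 5 at an unadjusted p under 0.05). The count was also 0 with median centring, in the deposited table and with the GC trend removed (0, 0 and 3 at an unadjusted p under 0.05). With quantile normalization the median was 0.01, and 0 were called by limma or at an unadjusted p under 0.05. Family 3 was at 6.20, 6.24, 6.32 and 6.23 in DJB and 6.39, 6.38, 6.18 and 6.41 in Sham, with 1 of 64 lower, 6 with median centring, and a median of -0.08. Family 5, whose stretch was in 0 windows, was at -0.03, 0.13, -0.01 and -0.12 in DJB and -0.22, -0.07, -0.09 and -0.11 in Sham, with 0 of 43 called by limma after adjustment, 3 at an unadjusted p under 0.05, and a median of 0.11 that was -0.04 with the GC trend removed. Without DJB replicate 4, 5 of its members were higher.

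In 2 pairs of families, 1 with 27 and 18 with 28, 50% or more of the members of each hold a 15-base stretch whose reverse complement lies in the other. These families hold the opposite strands of a shared sequence. The median level was 8.82 in family 1 and 2.00 in family 27, and 9.14 in family 18 and 3.24 in family 28. These are levels of probes with different sequences, and no difference between strands is read from them. Family 27 was at 2.23, 2.12, 2.04 and 2.07 in DJB and 1.99, 1.84, 1.83 and 1.86 in Sham, without overlap, with 4 of 10 members higher and a median log2 fold change of 0.22, or 1 of 10 and 0.11 with median centring. There were 2 calls without DJB replicate 1, DJB replicate 2, Sham replicate 2, Sham replicate 3 or Sham replicate 4. Family 28 was at 3.34, 3.26, 3.08 and 3.21 in DJB and 3.34, 3.27, 3.15 and 3.25 in Sham, with overlap. It had 0 of 10 called by limma after adjustment and 0 at an unadjusted p under 0.05, and its median was -0.02. Family 10 shares 15-base stretches on the same strand with families 16 and 23, and the medians of these 3 families were -0.04, -0.01 and -0.12.

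The other tested families with 0 calls by limma after adjustment were 9, 10, 14, 16, 19 and 29, with median log2 fold changes of -0.12 to 0.09. At an unadjusted p under 0.05 family 10 had 1 member, family 14 had 0, family 16 had 2, family 19 had 4 and family 29 had 0. Families 23 and 24 had 3 of 13 and 2 of 11 members lower, with 11 of family 23 and 4 of family 24 lower under median centring. Family 23 had 1 lower without DJB replicate 2 or Sham replicate 1 and with the GC trend removed, and 6 with normexp background correction. Family 9 did not overlap, at 2.99, 3.01, 2.87 and 2.94 in DJB and 3.12, 3.07, 3.08 and 3.04 in Sham, yet 0 of its 25 members were called by limma after adjustment, with 6 at an unadjusted p under 0.05. With median centring 17 members of family 9 were lower, with normexp background correction 8 and with the GC trend removed 5. Median centring also called 4 members of family 10 lower, 1 of family 14, 3 of family 16 and 2 of family 29. Families 8 and 11 were not tested. None of the 21 members of family 11 was well above background on any array (0 of 8), and the same held for 29 of the 35 members of family 8. No level is given for their transcripts. The fit without the filter still called 11 of the 21 members of family 11 higher, with a median of 0.46, and of family 8 called 2 of 35 higher and 12 lower, with a median of -0.51, so its calls include probes that lie at background.

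The 5 families whose most frequent stretch is in 10 probes had 50 members, all tested, with family medians of log2 fold change from -0.07 to 0.69. The 6 families just outside, with a stretch in 9 probes, had 80 members, 74 of them tested, with medians from -0.50 to 0.50. The median SD of log2 fold change within a family was 0.03 inside and 0.05 outside. At the upper end no family within the limit had a stretch in more than 42 probes.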

How the data were processed

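Cy3-labelled jejunum RNA was measured on 8 Agilent arrays of 1 colour, grouped by sample title. Per the file headers, the authors' spot intensity values are background-corrected processed signals of Feature Extraction 10.7.1.1 on a linear scale. Feature Extraction 10.7 and limma also appear in the submitters' processing notes. A deposited value table in log2 units, of unstated normalization and with column medians of 6.21 to 6.23, covers 65478 of the probes and was an alternative.

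Each array's 75th percentile, taken over non-control spots, was subtracted from its log2 processed signals to give levels. Spots flagged as outliers were dropped (151 to 310 per DJB array, 58 to 102 per Sham array) and spots of a probe averaged. A probe was tested if on 4 or more of the 8 arrays every spot kept was well above background, with at least 2 values in each group. All 58712 such probes were fitted with limma 3.58.1 in R 4.3.3, with Benjamini-Hochberg adjustment over all of them and a threshold of 0.05. The number of arrays limits the precision. The fit was tested on simulated data.

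Families are connected groups of probes that share 25-base stretches. They are described by counts, medians and per-array medians over tested members, with no test over a family. The named families are the 5 with most tested members, the 4 highest and 4 lowest medians, the 3 widest spreads and the opposite-strand pairs. The members and lists were chosen with earlier results of these data known. In R, data.table (1.17.8) read the scanner files for the fit, and families were found in Python 3.11.15 and summarised with pandas 2.3.3. Alternatives covered scaling, background correction, filters, outlier spots, the threshold, the replicate block, GC trend, left-out arrays and other definitions of a stretch.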

Additional observations from a re-analysis of the deposited data

Results flagged for a closer look

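In 3 of 54 sets of 4 arrays, 1 array's family median lay far from the other 3, and chance alone sets apart about 1 set in 20. In family 3, Sham replicate 3 was at a median level of 6.18, where the other Sham arrays were between 6.38 and 6.41. In family 18, DJB replicate 1 was at 9.31, where the other DJB arrays were between 9.22 and 9.24. In family 21, Sham replicate 2 was at -2.50, where the other Sham arrays were between -3.38 and -3.32.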

How the results depend on the processing

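The main settings called 154 members, 119 higher and 35 lower, with 5 families mostly higher and 0 mostly lower, mostly meaning 50% or more of the tested members. With arrays centred on the median 78 were higher and 142 lower, beside 12.0% and 21.8% of all tested probes, and 5 families were mostly lower. Normexp background correction gave 2 families mostly lower. Removing the GC trend gave 91 higher and 89 lower members, beside 17.6% and 12.5% of all tested probes, and 3 families mostly lower. In the deposited table, with 564 members tested, 97 changed and 65 were higher, beside 30.7% and 15.1% of all probes tested there. At an adjusted p under 0.01, 65 changed, 64 higher and 1 lower, and 3 families were mostly higher. The share of all probes at that threshold is not given here. The 38 families built from 20-base stretches had 263 of 1478 tested members changed, 184 higher and 79 lower, and 2 families mostly lower. At 30 bases no stretch passed 80 probes, so no family was left out. In these 24 families 256 of 696 tested members changed, 62 higher and 194 lower, with 2 families mostly lower. Stretches in 5 to 80 probes gave 143 families and 336 of 1554 tested members changed, 220 higher and 116 lower. Of these families 19 were mostly higher and 13 mostly lower. Over all tested probes the main settings called 31.3%, with 18.4% higher and 12.9% lower. Leaving out 1 array gave 80 to 157 changed, 70 to 108 higher and 7 to 65 lower, with 4 to 5 families mostly higher and 0 to 1 mostly lower. Over all tested probes those fits called 21.3% to 29.8%, with 13.5% to 17.2% higher and 7.71% to 12.6% lower. The lowest count of changed members came without DJB replicate 2, and those lower were 65 without Sham replicate 3 and 7 without Sham replicate 1 or 4. Where no cause is named, it was not tested. Over 530 alternatives for family medians, 490 moved by less than the spread between replicates and 40 by more. The median changed sign in some alternative for 7 families, none of them (0 of 5) mostly called higher.

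Same-numbered arrays deviated together with correlations of 0.142, 0.106, -0.0503 and 0.107, so the shared numbers were not treated as pairing. With the replicate number as a block 135 members changed, 102 higher and 33 lower. Over all tested probes the shares were 26.6%, 15.7% and 10.9%. In this fit 1 family was mostly lower (family 20, 9 of 16), while family 4 had 10 of 45 lower. As a hint from the data and not the design, 3 of 4 DJB arrays correlated best with the Sham array of their own number.

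Limits are that slide and surgery cannot be told apart, that Sham signals of families 6 and 15 lie near background, and that all of family 11 and 29 of the 35 members of family 8 were not above it.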
